A study of Rattus norvegicus with 6 samples.

Results

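The microRNAs (miRNAs) rno-miR-671, rno-miR-674-3p, rno-miR-6216, rno-miR-1247-5p and rno-miR-505-5p of rat plasma vesicles, written below without the species prefix, are described here across 6 libraries. They are 5 of the 764 mature miRNAs in the count table and were picked by name because their levels were lower in diabetic than in control libraries. Their own difference between the groups is therefore given as a description. Where a test over all miRNAs called some of them, the number is set beside the number or share of all miRNAs called and nothing is read from it. The opposite arms of their hairpins, which were not used in the choice, were tested.

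Small extracellular vesicles are membrane particles shed by cells into blood. The diabetic group holds 3 libraries from male wild-type Sprague-Dawley rats, an outbred strain, after 8 weeks of diabetes induced with streptozotocin, a beta cell toxin, at 65 mg/kg by intraperitoneal injection. Rats counted as diabetic when fasting glucose exceeded 11.1 mmol/L at week 1 after the injection. The control group holds 3 libraries from control rats of the same sex, strain and genotype, and the labels name no vehicle for them. All rats were 6 to 8 weeks old when obtained. Each library was made from RNA of 18 to 30 nucleotides in vesicles of 2 ml of plasma. Nothing in the labels says that each library is a separate animal, so the spread between libraries may in part be technical. Streptozotocin and the diabetes it causes cannot be told apart in this design.

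A miRNA is cut from a hairpin precursor, and each side of the hairpin can give a mature strand, the 5p arm or the 3p arm. Usually one arm, the guide, is retained in the silencing complex and the other, the passenger, is degraded. The bases at positions 2 to 8 of the mature strand, the seed, pair with the messenger RNAs that it represses. miRNAs in blood vesicles come from blood cells, vessel wall and solid organs, and their level in a vesicle library is a share of all miRNA in it. Fewer vesicles of one source and less miRNA per vesicle cannot be told apart in such bulk libraries.

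The mature sequences are shown because the seed sets the targets and because the side of the hairpin identifies the strand that was counted. RefSeq (rat build GRCr8) held the mature strand of 4 of the 5 miRNAs and of all 3 opposite arms that the table lists, and miR-674-3p is given by name. Sequences are written 5′ to 3′ with the seed in capitals.
rno-miR-671: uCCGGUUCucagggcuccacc
rno-miR-6216: gAUACACAgaggcaggaggagaa
rno-miR-1247-5p: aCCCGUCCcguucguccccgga
rno-miR-505-5p: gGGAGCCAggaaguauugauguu
rno-miR-674-5p, opposite arm: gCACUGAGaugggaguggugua
rno-miR-1247-3p, opposite arm: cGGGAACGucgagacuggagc
rno-miR-505-3p, opposite arm: gUCAACACuugcugguuucc

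These 7 strands carry 7 different seeds, and 0 other listed miRNAs with a RefSeq sequence share any of them. The closest other listed sequence lay at least 7 edits away for each strand, so that near-identical copies were not seen among the 689 entries with a sequence. Base composition differed among the members: G and C made up 66.7% of miR-671, 72.7% of miR-1247-5p, 52.2% of miR-6216 and 47.8% of miR-505-5p, against a median of 47.8% over the 328 tested miRNAs with a sequence.

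The hairpins (GRCr8 coordinates) are shown with the mature strands that RefSeq annotates in capitals, to place each strand on its side. Hairpins were present for 4 of the 5 genes, and Mir505 is given by name.
Mir671, chr4:11473194-11473274, minus strand: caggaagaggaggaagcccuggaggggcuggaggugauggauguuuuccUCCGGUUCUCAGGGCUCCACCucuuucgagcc
Mir674, chr3:124507170-124507246, plus strand: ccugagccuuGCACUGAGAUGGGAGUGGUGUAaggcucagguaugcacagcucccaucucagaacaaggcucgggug
Mir6216, chr3:65165553-65165630, minus strand: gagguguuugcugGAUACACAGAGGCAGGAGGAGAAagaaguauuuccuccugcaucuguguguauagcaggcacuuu
Mir1247, chr6:135105885-135105966, minus strand: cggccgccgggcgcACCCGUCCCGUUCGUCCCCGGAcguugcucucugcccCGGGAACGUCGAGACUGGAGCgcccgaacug

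The strand that the rat annotation calls miR-671 spans bases 50 to 70 of its 81-base hairpin and so comes from the 3p side. In mouse and human, the strand known for directing the cleavage of the circular RNA Cdr1as is the 5p arm, miR-671-5p. By this annotation the counts below describe the 3p strand, and miR-671-5p was not analysed here. The match is by name, since the miRNA release behind the counts was not given. miR-6216 comes from the 5p side of its hairpin, at bases 14 to 36 of 78.

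In GRCr8, Mir671 lies inside the span of Chpf2, which encodes a chondroitin polymerizing factor, on the same strand. Mir505 lies on chromosome X. Mir1247 lies beside Dio3, the gene of the deiodinase that inactivates thyroid hormone, at the end of the imprinted Dlk1-Dio3 domain on chromosome 6. Mir674 lies outside any annotated gene span with Spred1, an inhibitor of Ras signalling, as its nearest protein-coding gene, and Mir6216 likewise with Cd302, a C-type lectin receptor. The 5 hairpins sit at separate loci, and the one miRNA gene within 10 kb of any of them was Mir3589, which overlaps Mir505. Its mature strand, miR-3589, is encoded on the strand opposite to miR-505-3p and had a count of 0 in all 6 libraries, which allows up to 0.48 CPM (counts per 1e+06 miRNA counts) in the shallowest library, for counting error only.

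Library totals ran from 7490383 to 8403856 miRNA counts in diabetic and from 6254077 to 8930730 in control libraries. Together the 5 miRNAs made up 0.0148% to 0.0305% of counts in diabetic libraries and 0.0389% to 0.0969% in control libraries. Of all 764 entries, 362 passed the filter on low counts, and these include the 5 miRNAs and the 3 opposite arms. Levels below are CPM scaled between libraries by the trimmed mean of M values (TMM), unless plain CPM, which use the library total alone, are named. Marker miRNAs of erythrocytes, leukocytes, platelets and endothelium, hepatocytes, striated muscle and pancreas were detected in every library, except miR-216a-5p of the pancreas, with a count of 0 in control replicate 2. The summed TMM-scaled level of 5 erythrocyte miRNAs was 40299.9 to 73039.7 CPM in diabetic and 87554 to 187254 CPM in control libraries. On plain CPM the erythrocyte sums overlapped, at 51208 to 88443 CPM in diabetic and 70241 to 183083 CPM in control libraries. The sum of 5 leukocyte miRNAs was 9196 to 11187 CPM in diabetic and 4863 to 9600 CPM in control libraries. On plain CPM the leukocyte sums were 10314 to 14251 CPM in diabetic and 3413 to 7702 CPM in control libraries, without overlap. The TMM-scaled sum of 3 hepatocyte miRNAs was 45352 to 75599.9 CPM in diabetic libraries, against 39249 CPM, 98103 CPM and 299585 CPM in control replicates 1, 2 and 3. The groups overlapped. The control libraries stood in the order that miR-671 and miR-6216 showed, as they also did for the pancreas and striated muscle sums given next. They did not for the erythrocyte, leukocyte or platelet and endothelium sums. Nor did they for the pancreas miRNA miR-216a-5p alone, with 1, 0 and 3 counts in control replicates 1, 2 and 3. The sum of 3 pancreas miRNAs was 897 to 21649 CPM in diabetic and 899 to 40328 CPM in control libraries, and that of 3 striated muscle miRNAs 2658 to 12857 CPM in diabetic and 1173 to 15138 CPM in control libraries. Both overlapped. The sum of 4 platelet and endothelium miRNAs overlapped on the TMM scale, at 21035 to 26702 CPM in diabetic and 20454 to 25062 CPM in control libraries. On plain CPM it did not, at 26729 to 30698 CPM in diabetic and 14939 to 20107 CPM in control libraries. The part of these cell types in the levels below was not tested.

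rno-miR-674-3p, from a hairpin known in rodents, was the most abundant of the 5. It stood at 203, 171 and 82.9 CPM in diabetic replicates 1, 2 and 3, against 375, 799 and 817 CPM in control replicates 1, 2 and 3. Every diabetic library lay below every control library, and the nearest pair was diabetic replicate 1 and control replicate 1. The log2 fold change of diabetic over control was -2.12 (SE 0.45, as for the others from a fit over all tested miRNAs). Within the diabetic group this miRNA had the widest scatter of the 5, with diabetic replicate 3 alone at its lower end.

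rno-miR-671 stood at 19.4, 27.8 and 28.4 CPM in diabetic replicates 1, 2 and 3, against 68.1, 123 and 182 CPM in control replicates 1, 2 and 3. The diabetic libraries were close together, the control libraries were spread over a wider range, and the groups did not overlap. The log2 fold change was -2.30 (SE 0.44).

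rno-miR-6216, for which the reference annotates a single mature strand, stood at 8.28, 8.39 and 11.5 CPM in diabetic replicates, against 20.9, 39.9 and 66.2 CPM in control replicates, in the order 1, 2 and 3. The order of the 6 libraries was that of miR-671: control replicate 3 was highest, control replicate 1 lowest of the controls, and all diabetic libraries lay lower still. The log2 fold change was -2.17 (SE 0.47).

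rno-miR-1247-5p was the rarest, with 5, 5 and 8 counts in diabetic replicates 1, 2 and 3, against 13, 28 and 34 counts in control replicates 1, 2 and 3. In plain CPM these are 0.668, 0.658 and 0.952 in diabetic and 1.46, 4.48 and 5.2 in control libraries. The exact 95% binomial (Clopper-Pearson) interval of the highest diabetic library, 0.411 to 1.88 CPM, overlapped that of the lowest control library, 0.775 to 2.49 CPM. It did not reach those of control replicates 2 and 3, whose lower ends were 2.97 and 3.6 CPM. The log2 fold change of -2.82 (SE 0.68) was the lowest of all 362 tested miRNAs and also the least precise of the 5.

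rno-miR-505-5p stood at 8.59, 6.84 and 8.28 CPM in diabetic replicates 1, 2 and 3, against 18.8, 24.0 and 20.9 CPM in control replicates 1, 2 and 3. It had the smallest difference of the 5, with a log2 fold change of -1.43 (SE 0.36), and the tightest groups, at 7.9 ± 0.937 CPM in diabetic and 21.3 ± 2.62 CPM in control libraries (mean ± SD, n = 3 each). The groups did not overlap. Control replicate 1 was again the lowest control, but close to the other 2, and control replicate 2 rather than 3 was the highest.

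**Figure D1:**
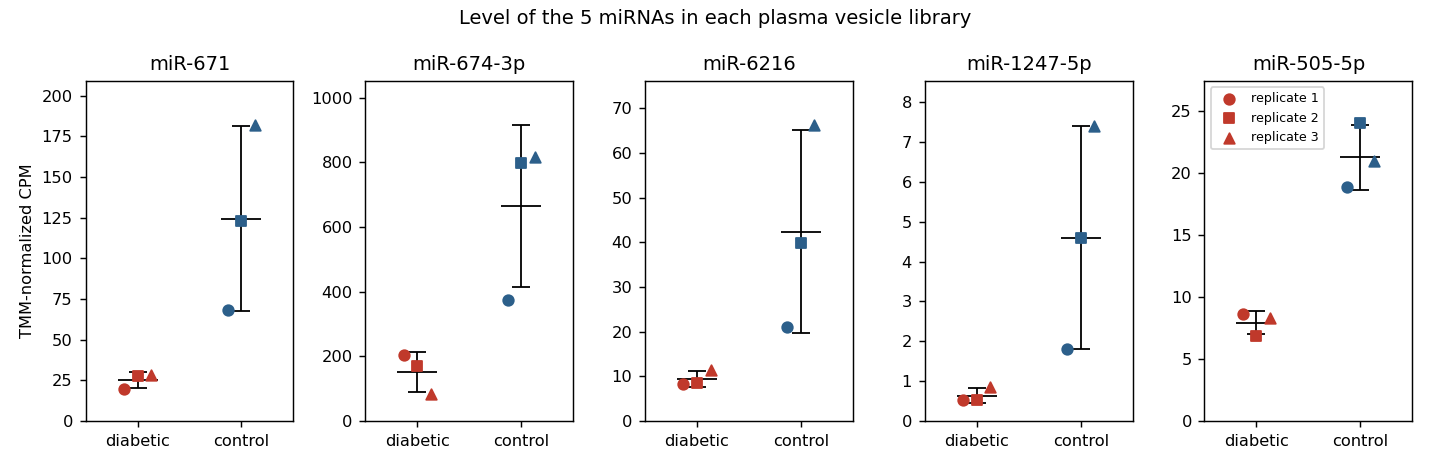
TMM-normalized CPM (vertical axis, linear, one scale per panel) of the 5 miRNAs in 3 diabetic and 3 control libraries; points are libraries, with the marker shape giving the replicate, and bars are the mean with SD. All diabetic points lie below all control points in each panel, and the gap is narrowest in absolute terms for miR-1247-5p, at 0.849 CPM in the highest diabetic library against 1.81 CPM in the lowest control library.

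The choice of members fixed these directions, so their counts are set beside the background only. All 5 had every diabetic library below every control library, as did 53 of 362 tested miRNAs (14.6%) on TMM-scaled CPM. When only library size was corrected for, the 5 were still separated, as were 13 of 362 tested miRNAs (3.59%). By the quasi-likelihood test of edgeR, with p adjusted over all tested miRNAs after Benjamini and Hochberg, 3 of the 5 (miR-671, miR-674-3p and miR-6216) were among the 4 of 362 (1.10%) lower at an adjusted p under 0.05, beside 2 of 362 (0.552%) that were higher. When libraries were left out one at a time, this test called all 5 lower if control replicate 1 was missing, among 23 miRNAs called lower. It called 3 of them lower if diabetic replicate 3 was missing, among 10 miRNAs called lower. It called 0 of them, and 0 of all tested miRNAs, if any one of the other libraries was missing. Of the 5, it called 1 with RLE factors, 2 with upper quartile factors and 1 with TMM factors computed without the 5 most abundant miRNAs. In each of these settings 2 of all 362 tested miRNAs were called lower. DESeq2 called 5 of the 5, among 24 of 362 called lower. Nothing is read from these calls, since the choice of members used the same contrast.

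Ranks within a library need no scaling between libraries. Among the 362 tested miRNAs, ranked from the most abundant, miR-671 held places 200.5, 180.5 and 177 in diabetic replicates 1, 2 and 3 (ties averaged), against 143, 110 and 96 in control replicates 1, 2 and 3. miR-674-3p held places 100, 102 and 137 in diabetic replicates, against 77, 56 and 58 in control replicates. All 5 stood further from the top in every diabetic library than in any control library, which held for 50 of 362 tested miRNAs (13.8%).

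Of the tested miRNAs outside the 5 whose groups did not overlap either, the lowest fold changes belonged to miR-122-3p, miR-130b-5p and miR-543-3p. miR-122-3p, from a hairpin active in hepatocytes, had a log2 fold change of -2.45 (SE 0.67), with 16.8 CPM in diabetic replicate 1 beside 17.0 CPM in control replicate 1. miR-130b-5p had -2.25 (SE 0.44). The sparse miR-543-3p had -2.14 (SE 0.66), at 0.318 to 0.838 CPM in diabetic and 1.64 to 3.07 CPM in control libraries. By fold change, counted from the lowest, miR-1247-5p, miR-671, miR-6216, miR-674-3p and miR-505-5p held places 1, 3, 6, 8 and 25 of 362.

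miR-671 and miR-6216 kept similar proportions to each other from library to library. The counts of miR-671 were 2.34, 3.31 and 2.48 times those of miR-6216 in diabetic replicates 1, 2 and 3, and 3.25, 3.08 and 2.75 times in control replicates 1, 2 and 3. This ratio spanned 1.41-fold over the 6 libraries, while the level of miR-671 itself spanned 5.17-fold in plain CPM and 9.38-fold in TMM-scaled CPM. The ratio of miR-671 to miR-130b-5p, a minor strand of the miR-130b hairpin and no member of the group, spanned 1.34-fold, with a mean of 2.59 in diabetic and 2.58 in control libraries. The ratio to the sparsely counted miR-1247-5p spanned 2.18-fold, that to miR-674-3p 3.59-fold and that to miR-505-5p 3.86-fold. The counts of miR-6216 were 15.8, 16.2 and 13.5 times those of miR-1247-5p in diabetic replicates 1, 2 and 3. They were 11.5, 8.71 and 8.94 times in control replicates 1, 2 and 3. This ratio did not overlap between the groups, but it rests on 5 to 8 diabetic and 13 to 34 control counts of miR-1247-5p. Its counting error was not computed, and the share of other ratios without overlap was not counted. The ratio of miR-671 to miR-1247-5p did overlap, at 33.5 to 53.6 in diabetic and 24.6 to 37.5 in control libraries.

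The likeness of profiles was measured as the root mean square difference of log2 CPM over the 6 libraries, each profile centred on its own mean. For miR-671 the nearest of all tested miRNAs were miR-130b-5p (0.13), miR-6216 (0.19) and miR-1247-5p (0.22), where the median tested miRNA lay at 1.29. For miR-6216 and miR-1247-5p the 3 nearest were likewise the other 2 of this trio and miR-130b-5p, at 0.16 to 0.23. miR-674-3p lay farther from the trio, at 0.56 to 0.61, with miR-485-5p (0.48) and miR-615 (0.54) as nearest. miR-505-5p was nearest to the abundant miR-151-3p (0.20), to miR-139-5p (0.23) and to miR-6324 (0.27). Profiles that separate the same 2 groups are alike in part for that reason alone, and all share the 6 libraries and their scaling. A prior count of 2 was added before taking logs, which narrows the differences of the sparsely counted miR-1247-5p between libraries.

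**Figure D2:**
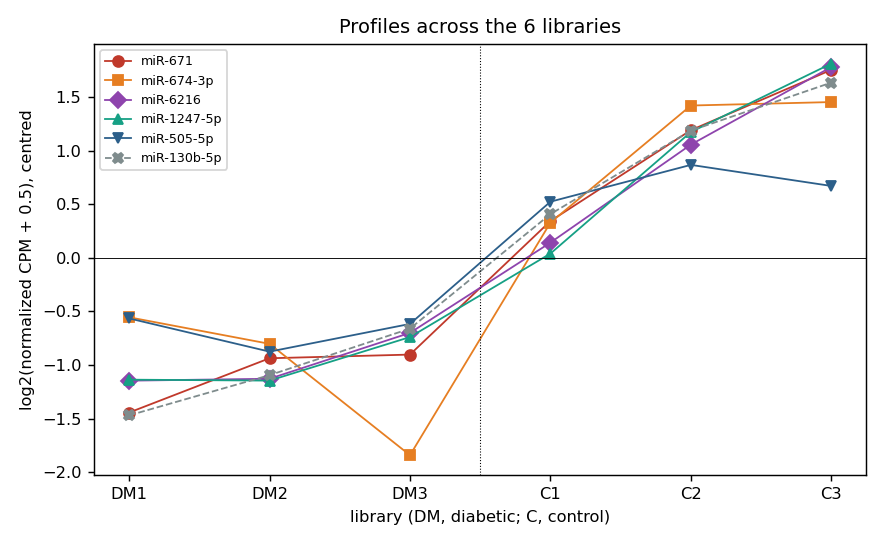
log2 of TMM-normalized CPM plus 0.5, centred on each miRNA's mean (vertical axis), in 3 diabetic and 3 control libraries (horizontal axis) for the 5 miRNAs and miR-130b-5p; lines only join the points of a miRNA. miR-671, miR-6216, miR-1247-5p and miR-130b-5p run close together, whereas miR-674-3p dips in diabetic replicate 3 and miR-505-5p is flat within each group. The added 0.5 narrows the profile of the sparse miR-1247-5p, which lay at 0.518 to 0.849 CPM in diabetic libraries.

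The opposite arm of a hairpin comes from the same transcript and was not used to choose the group. The table lists it for miR-674, miR-1247 and miR-505. Of these 3 arms, 0 passed the edgeR test at an adjusted p under 0.05, and 0 reached an unadjusted p under 0.05. Over all tested miRNAs 6 of 362 (1.66%) passed in either direction. The log2 fold changes were 0.37 (SE 0.56, adjusted p = 0.733) for miR-674-5p, -0.59 (SE 0.81, adjusted p = 0.712) for miR-1247-3p and 0.07 (SE 0.63, adjusted p = 0.96) for miR-505-3p. The standard errors are large, so these values leave room for sizeable differences in both directions.

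miR-674-5p, the minor arm, stood at 3.88, 2.69 and 3.29 CPM in diabetic replicates 1, 2 and 3, against 3.91, 2.45 and 1.09 CPM in control replicates 1, 2 and 3. The groups overlapped, and the lowest value was that of control replicate 3, where miR-674-3p was highest. The counts behind it were 37, 26 and 31 in diabetic and 28, 15 and 5 in control libraries. On plain CPM, at 3.42 to 4.94 in diabetic and 0.765 to 3.14 in control libraries, all diabetic libraries lay above all control libraries, so the overlap depends on the scaling.

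Within a library the ratio of the 2 arms is free of any scaling. The log2 ratio of miR-674-3p to miR-674-5p counts was 5.69, 5.96 and 4.63 in diabetic replicates 1, 2 and 3, against 6.56, 8.30 and 9.41 in control replicates 1, 2 and 3. miR-674-3p thus held 96.2% to 98.4% of the reads of both arms in diabetic and 99.0% to 99.9% in control libraries. The difference of the mean log2 ratios, diabetic minus control, was -2.66. It is a description, since one of the 2 arms was picked for its low diabetic level.

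For miR-1247 both arms were near the detection limit. miR-1247-3p had 13, 2 and 14 counts in diabetic replicates 1, 2 and 3, against 6, 8 and 12 counts in control replicates 1, 2 and 3, and the groups overlapped. The 5p arm was the more frequent one in all 3 control libraries, at 68.4%, 77.8% and 73.9% of both arms. In diabetic libraries it held 27.8%, 71.4% and 36.4%, so that diabetic replicate 2 lay within the control range.

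For miR-505 the 3p arm was the abundant strand. miR-505-3p stood at 266, 198 and 169 CPM in diabetic replicates 1, 2 and 3, against 443, 92.7 and 67.1 CPM in control replicates 1, 2 and 3. Control replicate 1 lay above, and the other control libraries below, all diabetic libraries. With that library left out, which leaves 2 controls, the log2 fold change was 1.38 and passed the edgeR test (adjusted p = 0.0368). Over the other 12 alternatives its adjusted p ran from 0.368 to 0.955 and its log2 fold change from -0.35 to 0.66. miR-505-5p, by contrast, was at a similar level in all 3 control libraries. As a result it held 3.13%, 3.34% and 4.66% of both arms in diabetic replicates, against 4.08%, 20.6% and 23.8% in control replicates 1, 2 and 3.

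**Figure D3:**
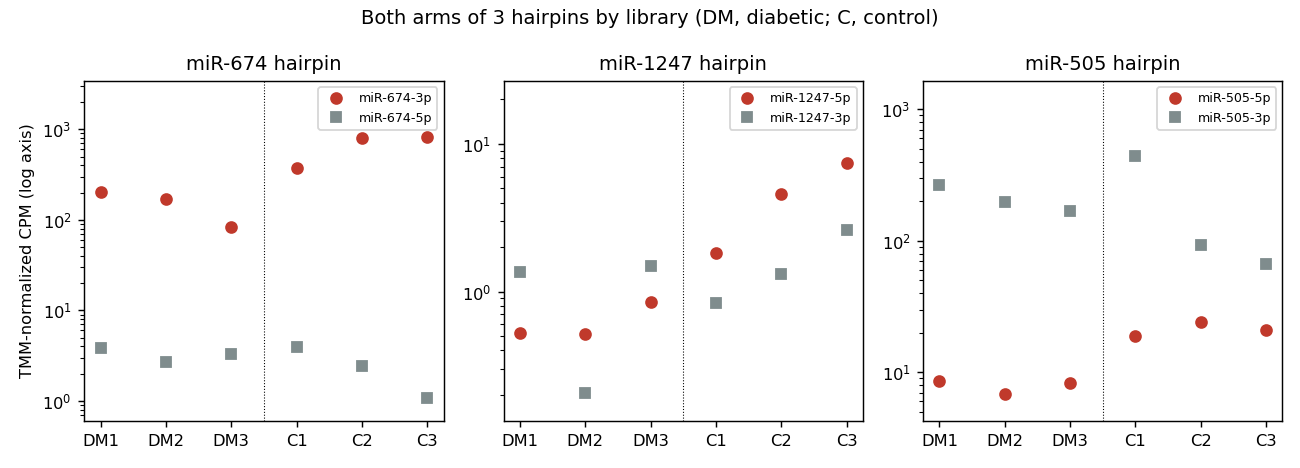
TMM-normalized CPM on a log axis of the 5p and 3p arms of the miR-674, miR-1247 and miR-505 hairpins in diabetic (DM1 to DM3) and control (C1 to C3) libraries; circles are the arms in the group of 5 and squares the opposite arms. The circles lie lower in diabetic libraries in all 3 panels, and the squares overlap between the groups.

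Unequal behaviour of the 2 arms was common in these libraries. Of 95 hairpins with both arms tested, 43 (45.3%) had arms with fold changes of opposite sign, and the median distance between the log2 fold changes of the arms was 0.81. The distance was 2.50 for miR-674, 2.23 for miR-1247 and 1.50 for miR-505, placing them at ranks 3, 8 and 21 of 95 from the largest. These ranks are partly set by the choice of one arm as low.

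**Figure D4:**
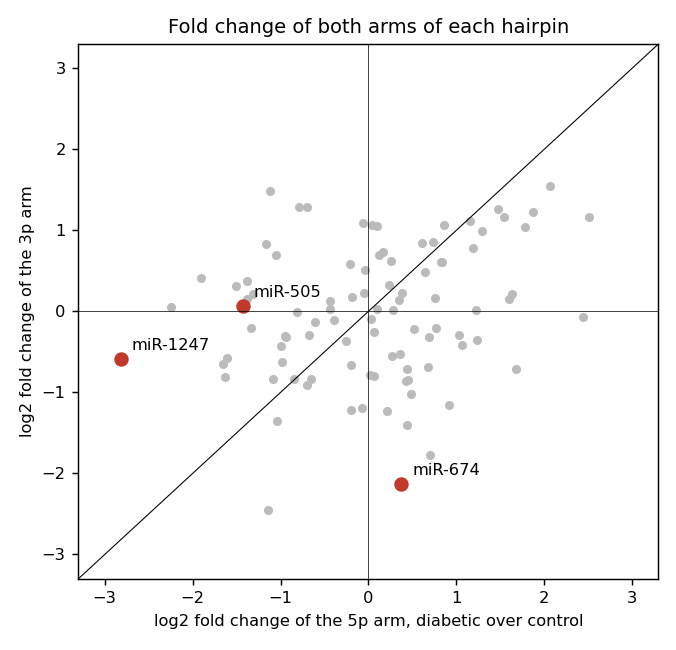
log2 fold change, diabetic over control, of the 5p arm (horizontal axis) and the 3p arm (vertical axis) of 95 hairpins with both arms tested; the diagonal marks equal change. miR-674 lies at 0.37 and -2.12, miR-1247 at -2.82 and -0.59 and miR-505 at -1.43 and 0.07, so that the chosen arm of each is below 0 and its opposite arm nearer to 0.

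Lists of related miRNAs were examined for a common direction. Cdr1as binds miR-7, and 4 miR-7 strands are listed. They include the 3p strands miR-7a-1-3p and miR-7a-2-3p, for which no binding by Cdr1as is implied here. Of the 4 strands, 0 passed the edgeR test in either direction and 0 reached an unadjusted p under 0.05. Their abundant strand miR-7a-5p stood at 530.1, 1017 and 1204 CPM in diabetic replicates 1, 2 and 3, against 952, 1138 and 1751 CPM in control replicates 1, 2 and 3, with overlapping groups and a log2 fold change of -0.48 (SE 0.40, adjusted p = 0.488). The log2 fold changes of the sparse strands were -0.25 (SE 0.56) for miR-7a-1-3p, -1.94 (SE 1.31) for miR-7a-2-3p and 0.65 (SE 0.86) for miR-7b.

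Without both arms of miR-1247, which is encoded there, 28 miRNAs of the Dlk1-Dio3 domain were tested. Of these, 18 lay above 0 and 10 below, with 0 calls and a median log2 fold change of 0.08, beside 0.02 for all tested miRNAs. Without both arms of miR-505, 41 miRNAs encoded on chromosome X were tested, of which 28 lay above 0 and 13 below, with a median of 0.49. Of these, 1 passed the same test, the higher miR-532-5p, at 731, 812 and 722 CPM in diabetic replicates 1, 2 and 3, against 305, 200.5 and 224 CPM in control replicates 1, 2 and 3. When only library size was corrected for, 7 miRNAs encoded on chromosome X were called higher, neither arm of miR-505 among them, beside 45 of all 362 tested miRNAs (12.4%).

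Base composition and fold change were set side by side because miR-671 and miR-1247-5p are rich in G and C. Across 328 tested miRNAs with a sequence, Pearson's r was -0.09 and Spearman's rho -0.08, as a description over miRNAs that share the same 6 libraries. The 48 tested miRNAs with at least 60% G and C had a median log2 fold change of -0.11, against 0.12 for the 53 under 40%. Without miR-671 and miR-1247-5p, the remaining 46 had a median of -0.05, with 24 below 0.

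The size of the difference depended on how libraries were scaled, because the scaling moved all miRNAs together. With library size only, the median log2 fold change of all tested miRNAs was 0.61, against 0.02 with TMM. On that scale the log2 fold changes were -1.72 for miR-671, -1.54 for miR-674-3p, -1.58 for miR-6216, -2.25 for miR-1247-5p and -0.88 for miR-505-5p. With upper quartile factors, where that median was -0.28, they were -2.58, -2.50, -2.45, -3.11 and -1.73 in the same order of miRNAs. Each of the 5 was below 0 in the reported fit and in the 13 alternatives run. Each kept its groups apart in the 11 of these that scale the libraries anew or leave 1 out. Among all miRNAs tested in these settings, those separated likewise numbered from 13 with library size only to 88 with control replicate 1 left out. Nothing is read from this, since the choice of members used the same contrast. Leaving out 1 library could also do little to make groups overlap that were already apart.

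**Figure D5:**
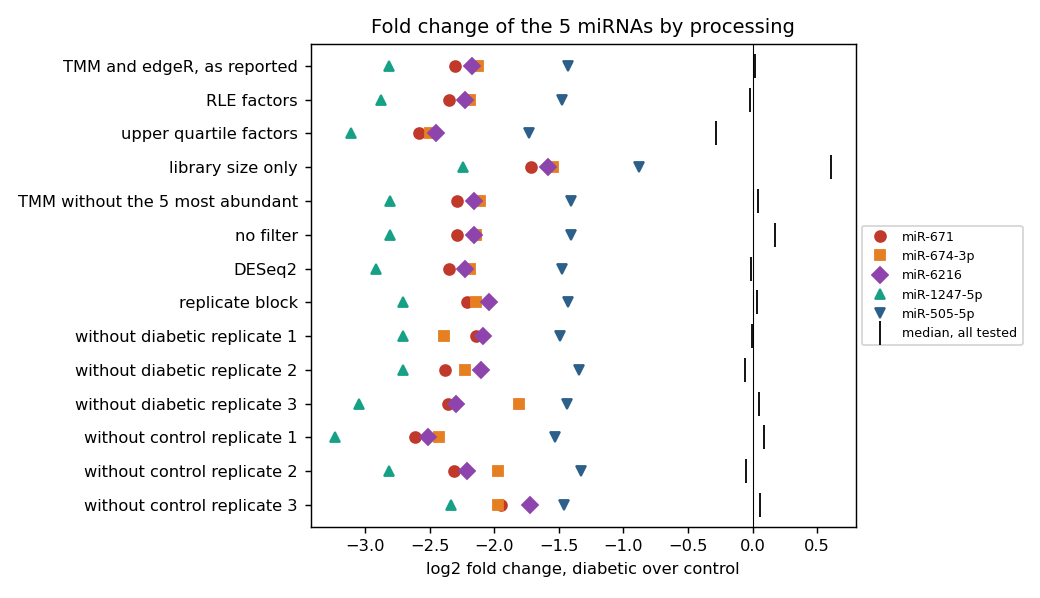
log2 fold change, diabetic over control (horizontal axis), of the 5 miRNAs under the reported fit and 13 alternatives (rows); ticks mark the median of all tested miRNAs. All 5 lie left of 0 and left of that median in each row, with miR-1247-5p lowest and miR-505-5p highest throughout.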

How the data were processed

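The authors deposited whole-number counts per mature miRNA for 6 libraries in 2 tables, identical in all 4584 cells. The second also holds CPM, which recomputed from the counts within 0.005, and the authors' log2 fold change with p-values of their own test, used here only as named. Build rn6 is given in the submitters' processing notes. The series text names DEGseq, whereas the name under which those p-values were deposited holds edgeR, so which of them gave the p-values was not settled here. For the aligner, counting tool, miRNA release and handling of reads that match several miRNAs, nothing was given in the sources used here.

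Groups came from the sample titles. The 5 miRNAs and the lists were chosen with earlier results of these data known. filterByExpr (minimum count 10, minimum total 15) retained 362 miRNAs, which hold 99.993% of all counts. TMM scaling gave factors of 1.12 to 1.27 in diabetic and 0.702 to 0.978 in control libraries. Groups were compared in edgeR (version 4.0.16, under R 4.3.3) by its two-sided quasi-likelihood F test. P-values were adjusted over all 362 miRNAs after Benjamini and Hochberg, with a threshold of 0.05, and measure only the spread between these libraries. Standard errors are the size of the log2 fold change over the square root of F. The code was tested on simulated data. Arm ratios are log2 ratios of counts plus 0.5 each. Likeness used log2 CPM with a prior count of 2. Named miRNAs are the 5, their opposite arms, entries sharing a seed or lying within 10 kb, miR-7 strands, the 3 lowest others with separate groups, and the 3 nearest profiles of each. miR-532-5p was named after its value was seen. Sequences and loci came from RefSeq (GRCr8). Alternatives were RLE, upper quartile or no factors, TMM without the 5 most abundant miRNAs, no filter, DESeq2 1.42.0, a replicate block and each library left out. Intervals and limits at a count of 0 (3 counts) cover counting error only, since PCR duplicates cannot be told from molecules.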

Additional observations from a re-analysis of the deposited data

How the results depend on the processing

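The 5 miRNAs, which were chosen as lower, stayed below 0 in all 13 alternatives. Leaving out 1 library at a time gave log2 fold changes of -2.62 to -1.95 for miR-671, -2.43 to -1.81 for miR-674-3p, -2.52 to -1.72 for miR-6216, -3.23 to -2.33 for miR-1247-5p and -1.53 to -1.33 for miR-505-5p. With library size only, miR-671 moved to -1.72 and miR-505-5p to -0.88, and with upper quartile factors miR-505-5p moved to -1.73. miR-505-3p changed sign, at -0.22 with upper quartile factors and -0.35 to 1.38 with 1 library left out. The 3 differences in arm ratio kept their sign with a prior count of 2 and with each library left out. miRNAs called lower, 4 as reported, numbered 2 with RLE factors, 2 with upper quartile factors, 2 with TMM without the 5 most abundant, 24 with DESeq2 and 0 to 23 with 1 library left out. miRNAs called higher, 2 as reported, numbered 45 with library size only, 0 with upper quartile factors, 5 with no filter, 18 with DESeq2 and 0 to 26 with 1 library left out. Where both were 0, unadjusted p under 0.05 was reached by 29 to 34 lower and 24 to 28 higher miRNAs. miRNAs whose diabetic libraries all lay below the controls, 53 as reported, numbered 13 with library size only, 80 with upper quartile factors and 66 to 88 with 1 library left out. The counts of list calls here include the chosen miRNAs. The Cdr1as list was made of miR-671 and the 4 miR-7 strands, among them the 3p strands miR-7a-1-3p and miR-7a-2-3p. By the RefSeq annotation its miR-671 is the 3p strand and not the miR-671-5p known for directing Cdr1as cleavage. The Cdr1as list had 1 lower call as reported, the chosen miR-671, beside 4 of all 362 tested miRNAs (1.10%). With 1 library left out it had 0 to 1 lower calls, again miR-671. Chromosome X higher calls, 1 as reported, numbered 7 with library size only, 0 with upper quartile factors, 4 with DESeq2 and 0 to 9 with 1 library left out, and its lower calls, 0 as reported, 2 with DESeq2 and 0 to 3. The Dlk1-Dio3 list, with 0 calls as reported, had 2 higher and 1 lower with library size only, 1 higher and 2 lower with DESeq2, and 0 to 2 higher and 0 to 1 lower with 1 library left out. Its lower call was the chosen miR-1247-5p with library size only and with control replicate 1 left out. With DESeq2 its lower calls were miR-1247-5p and miR-543-3p. The chosen miR-505-5p was among the chromosome X lower calls with DESeq2 and with control replicate 1 left out. The cause of these changes was not tested.

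Deviations of same-numbered libraries correlated at 0.28, 0.0012 and 0.25. Diabetic replicates 1 and 3 correlated best with the control of the same number, and diabetic replicate 2 with control replicate 3, at 0.077. These few values cannot decide whether same-numbered libraries were handled as pairs, and the labels give only the number. With a replicate block, 31 miRNAs were called lower and 26 higher, 5 of the 5 among the lower. The block gave 2 lower calls on the Cdr1as list, miR-671 and miR-7a-2-3p, 5 higher and 2 lower on chromosome X, and 2 higher and 3 lower in the Dlk1-Dio3 domain. The chosen miR-505-5p and miR-1247-5p were among the lower calls of the last 2 lists. Depth limits miR-1247-5p most, at 5 to 8 counts in diabetic and 13 to 34 in control libraries.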

Other observations

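In the authors' deposited table, whose fold changes are ratios of mean plain CPM, the log2 fold changes were -1.72 for miR-671, -1.54 for miR-674-3p, -1.59 for miR-6216, -2.29 for miR-1247-5p and -0.88 for miR-505-5p. For the opposite arms, the authors' deposited table gives 0.94 for miR-674-5p, -0.04 for miR-1247-3p and 0.66 for miR-505-3p.

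Among the miR-7 strands, miR-7b had 15, 25 and 188 counts in diabetic replicates 1, 2 and 3, against 16, 37 and 33 counts in control replicates 1, 2 and 3. For miR-7a-2-3p the counts were 0, 0 and 23 in diabetic replicates 1, 2 and 3, against 2, 33 and 18 in control replicates 1, 2 and 3.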
